A study of Mus musculus with 8 samples.

Results

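This account covers the potassium channel genes of mouse liver: the 71 protein-coding genes, of 27110 genes listed, whose symbol starts with Kcn followed by further letters and a digit. They fell by symbol into 10 tandem-pore channels (Kcnk), 10 inward rectifiers (Kcnj) and 29 voltage-gated channel subunits, some of which do not conduct alone. The rest were 8 calcium-activated and related channels (Kcnn, Kcnma, Kcnt and Kcnu) and 14 accessory subunits (Kcnab, Kcne, Kcnip and Kcnmb). The symbol pattern uses no expression value, but the family was chosen with earlier results of these data known. Total RNA was sequenced from livers at week 7, with 4 Fl/Fl libraries (replicates 5, 7 and 9 female, replicate 10 male) and 4 LKO libraries (replicates 3, 4, 12 and 13, all female). The title describes a deletion of the polycystin gene Pkd1l1 restricted to liver, which LKO libraries carry. Fl/Fl marks their controls, and the treatment of every sample is given as NT. The Cre line, the strain and whether livers were pooled are not given in the sources used here.

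Potassium channels let potassium leave the cell along its gradient and so set the membrane voltage. In liver epithelium this voltage drives chloride and bicarbonate secretion into bile and carries cell volume regulation. Tandem-pore channels conduct at rest, inward rectifiers hold the resting voltage or sense ATP, voltage-gated channels open on depolarisation, and the small-conductance channels open when cytosolic calcium rises.

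Libraries held 71491723 to 76622375 reads, and 16420 genes had enough reads to test. Pkd1l1 had 2 reads in the 3 female controls together and 2 in the 4 LKO livers together, so it could not check the genotype labels at this depth. The Y-linked Ddx3y had 6224 reads in Fl/Fl 10 and 0 to 2 elsewhere, as the sex labels require. Hepatocyte markers summed to 117067 to 131650 CPM (reads scaled by TMM library size) in female libraries and to 79775 CPM in the male library. Most of this sum was Alb, at 96160 to 109283 CPM in females and 55809 CPM in the male library. In the male library Apoa1 and Serpina1a lay above every female library and Ttr below, while Cps1 and Cyp2e1 lay within the female range. All 8 cholangiocyte markers were detected, at a sum of 54.5 to 78.9 CPM. Fold changes are LKO over female Fl/Fl (n = 4 against n = 3) with standard errors, the male library entering under a sex term. Each adjusted p comes from the quasi-likelihood test of edgeR, corrected by the Benjamini-Hochberg method over all tested genes, and called means an adjusted p under 0.05. CPM values are mean ± SD.

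Kcnk5 RNA was about 2 times as high in LKO livers as in female Fl/Fl livers, and Kcnk5 was the only channel gene that passed the test. It encodes a tandem-pore channel opened by alkaline pH and cell swelling, best known from the bicarbonate-reabsorbing kidney tubule. It was also the most abundant channel transcript of these livers. Of the other 33 tested channel genes, none passed, where 1.41% of all tested genes did. The calcium-activated channel gene Kcnn2 came closest, 1.35-fold higher with an adjusted p of 0.0522.

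Kcnk5 (ENSMUSG00000023243) lies on the minus strand of chromosome 14, 20140057 to 20181809 (mm10), and shares no exon base with another gene of GENCODE M21. Its promoter is shown because it is the start of the channel gene that changed. These are the 250 bases upstream of the RefSeq start site (GRCm38.p6, chr14:20181783-20182032, minus strand), with GC boxes in capitals.
Kcnk5: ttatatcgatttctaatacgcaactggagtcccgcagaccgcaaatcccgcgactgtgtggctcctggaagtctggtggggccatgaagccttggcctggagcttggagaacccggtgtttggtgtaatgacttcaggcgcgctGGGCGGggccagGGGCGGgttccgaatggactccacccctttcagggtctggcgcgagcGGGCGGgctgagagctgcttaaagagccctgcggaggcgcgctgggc
The window was 62.8% G and C, against a median of 52.4% over 32851 promoter windows of the same length. It held 3 matches to the GC box GGGCGG on either strand, a motif found in 32.7% of all windows and in windows of 31 of the 52 channel genes with a promoter entry. The letters of the E-box CACGTG (6.02% of all windows), the D-box TTANGTAA (2.06%), the AP-1 site TGANTCA (6.75%), the cyclic AMP element TGACGTCA (1.55%), the forkhead site TGTTTAC (3.17%), the palindromic glucocorticoid element (0.00913%) and the TATA box TATAAA (12.4%) were not in this window on either strand.

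Kcnk5 stood at 27.2, 31.0 and 26.3 CPM across Fl/Fl 5, 7 and 9, and at 77.4, 54.5, 54.2 and 56.7 CPM in LKO 3, 4, 12 and 13. The female groups did not overlap, and LKO 3 stood above the other 3 LKO libraries. The mean rose from 28.2 ± 2.50 to 60.7 ± 11.2 CPM (2.15-fold, log2 1.11 ± 0.14, adjusted p = 0.00881). In the male control it reached 63.9 CPM, inside the LKO range and above each female control. With 1 male library, sex and this animal cannot be told apart.

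The Kcnk5 call depended on how the male library was treated and on the female controls. With genotype alone over all 8 libraries the log2 fold change was 0.71 ± 0.30 (adjusted p = 0.618), and the authors' deposited table gives a log2 fold change of 0.71 with an adjusted p of 0.287. It was 1.08 ± 0.17 without Fl/Fl 5 (adjusted p = 0.0654), 1.20 ± 0.22 without Fl/Fl 5 and 7 together (adjusted p = 0.140), and 0.96 ± 0.10 without LKO 3 (adjusted p = 0.00245).

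The state of the libraries is given beside Kcnk5 by lists of immediate early, clock and cell type genes, whose part in the rise was not tested. All 8 immediate early genes had negative fold changes, 2 of them passing the test, and in 5 of the 8 every LKO library lay below the female controls. The AP-1 subunit gene Junb stood at 163 to 200.3 CPM in the female Fl/Fl libraries, at 43.0 to 63.2 in LKO and at 49.9 in the male library. Its partner Fos held 298 and 264 CPM in Fl/Fl 5 and 7, 30.7 in Fl/Fl 9, 4.87 to 12.7 in LKO and 4.78 in the male library.

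Of the 12 clock genes none passed, 1 lay higher in every LKO library than in the female controls and 11 overlapped. Over all tested genes the female groups did not overlap in 15.1%, counting both directions. The 1 was Ciart, a circadian repressor, named after its values were seen. It held 3.52, 3.33 and 7.84 CPM across Fl/Fl 5, 7 and 9, 8.30, 13.9, 18.4 and 20.2 CPM in LKO 3, 4, 12 and 13, and 26.7 CPM in the male library (log2 1.63, unadjusted p = 0.00815, adjusted p = 0.148). The Ciart groups only just separated, at 7.84 CPM in the highest female control and 8.30 in the lowest LKO library. For Kcnk5 these values were 31.0 and 54.2 CPM. The male library lay above every female control for both genes. The clock output gene Dbp varied within both groups. It held 2.46, 3.50 and 26.8 CPM across Fl/Fl 5, 7 and 9 and 46.1 CPM in the male library. In LKO 3, 4, 12 and 13 it held 0.61, 1.64, 54.4 and 42.2 CPM. Summed cholangiocyte markers were 65.7 to 78.9 CPM in female Fl/Fl, 54.5 to 65.6 CPM in LKO and 56.8 CPM in the male library, and none of the 8 passed. In bulk liver, fewer cells of a type and less RNA per cell cannot be told apart.

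**Figure D1:**
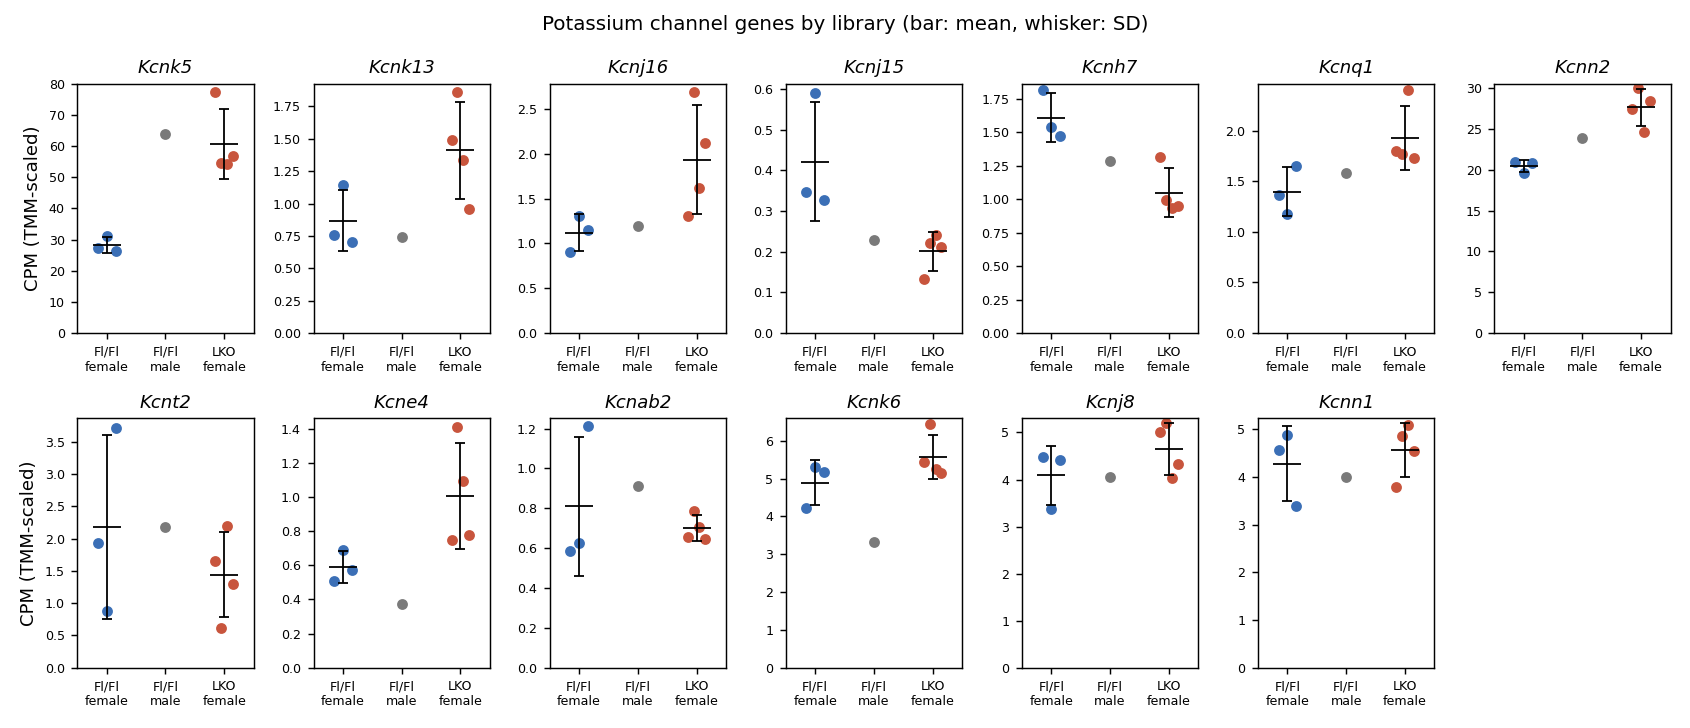
TMM-scaled CPM (vertical axes from 0) of 13 channel genes that the naming rule picks, with 1 point per library, and the mean and SD for the female Fl/Fl (n = 3) and LKO (n = 4) groups. The 4 LKO libraries hold 54.2 to 77.4 CPM of Kcnk5 against 26.3 to 31.0 in female Fl/Fl, with the male Fl/Fl library at 63.9.

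Levels of different genes were set side by side by the deposited FPKM, which divides reads by gene length and library size. Over all 8 libraries Kcnk5 averaged 14.9 FPKM (8.07 to 23.6), ahead of Kcnn2 at 3.48 (2.78 to 4.26), and neither range met that of the next gene. The ATP-sensitive rectifier gene Kcnj8 followed at 1.78 FPKM, the tandem-pore gene Kcnk6 at 1.26 and the calcium-activated gene Kcnn1 at 0.993. The ranges of neighbours from Kcnj8 to Kcnn1 overlapped, so their order is not firm. A gap followed Kcnn1, and the next gene, the accessory subunit Kcne3, averaged 0.464 FPKM.

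In all, 6 members averaged 0.5 FPKM or above. A further 18 lay between 0.1 and 0.5 FPKM and 47 below 0.1. Kcnk5 alone made up 38.7 ± 2.99% of the summed FPKM of the 71 genes in female Fl/Fl livers, 53.5 ± 5.29% in LKO livers and 59.6% in the male control. Without Kcnk5 the sum was 13.6 ± 0.592 FPKM in female Fl/Fl, 15.9 ± 0.997 in LKO and 13.2 in the male control.

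**Figure D2:**
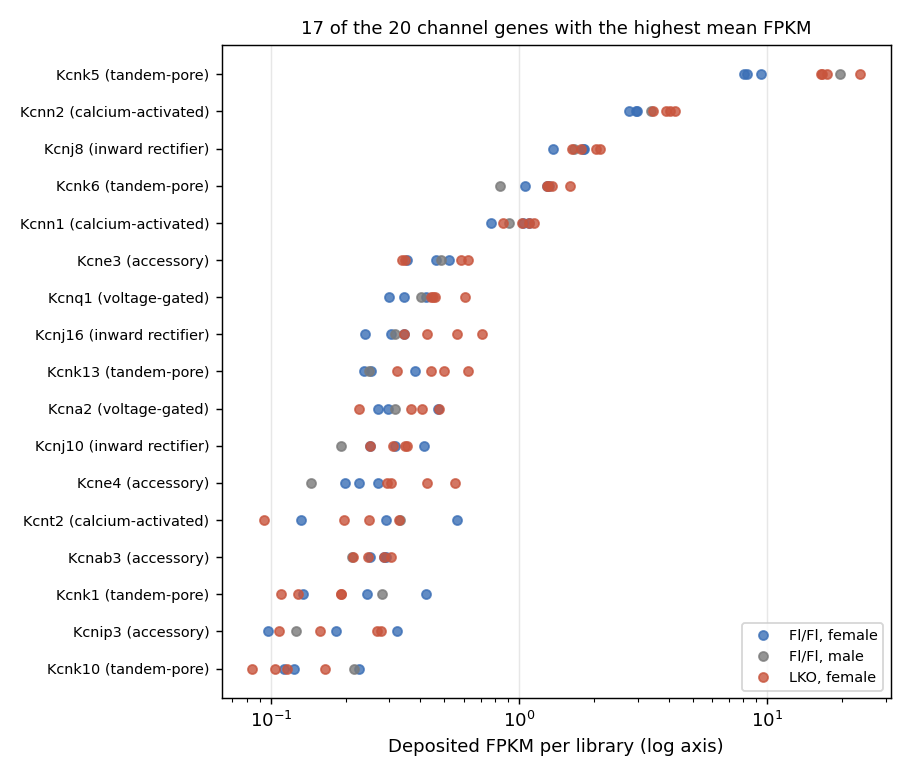
Deposited FPKM (log axis) of 17 of the 20 channel genes with the highest mean, with 1 point per library coloured by group. Kcnk5 (mean 14.9 FPKM) and Kcnn2 (3.48 FPKM) stand apart from the rest, and below Kcnn1 (0.993 FPKM) no gene averages over 0.464 FPKM.

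Of the 71 genes, 34 passed the filter on low counts. By the edgeR test 1 was higher and 0 were lower, against 1.02% higher and 0.396% lower over all tested genes, and a count of 1 gene does not set the family apart. At an unadjusted p under 0.05, 5 were higher and 2 lower, together 20.6% against 16.1% of all tested genes. DESeq2 called 2 higher, Kcnk5 and Kcnn2, and 0 lower. Over all genes DESeq2 called 520 higher and 284 lower, more than the 167 and 65 of edgeR. The median log2 fold change was 0.11 over the channel genes and -0.0032 over all tested genes. The female groups did not overlap in 7 channel genes (Kcnk5, Kcnn2, Kcnq1 and Kcne4 higher; Kcnj2, Kcnj15 and Kcnh7 lower), or 20.6%, against 15.1% of all tested genes.

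**Figure D3:**
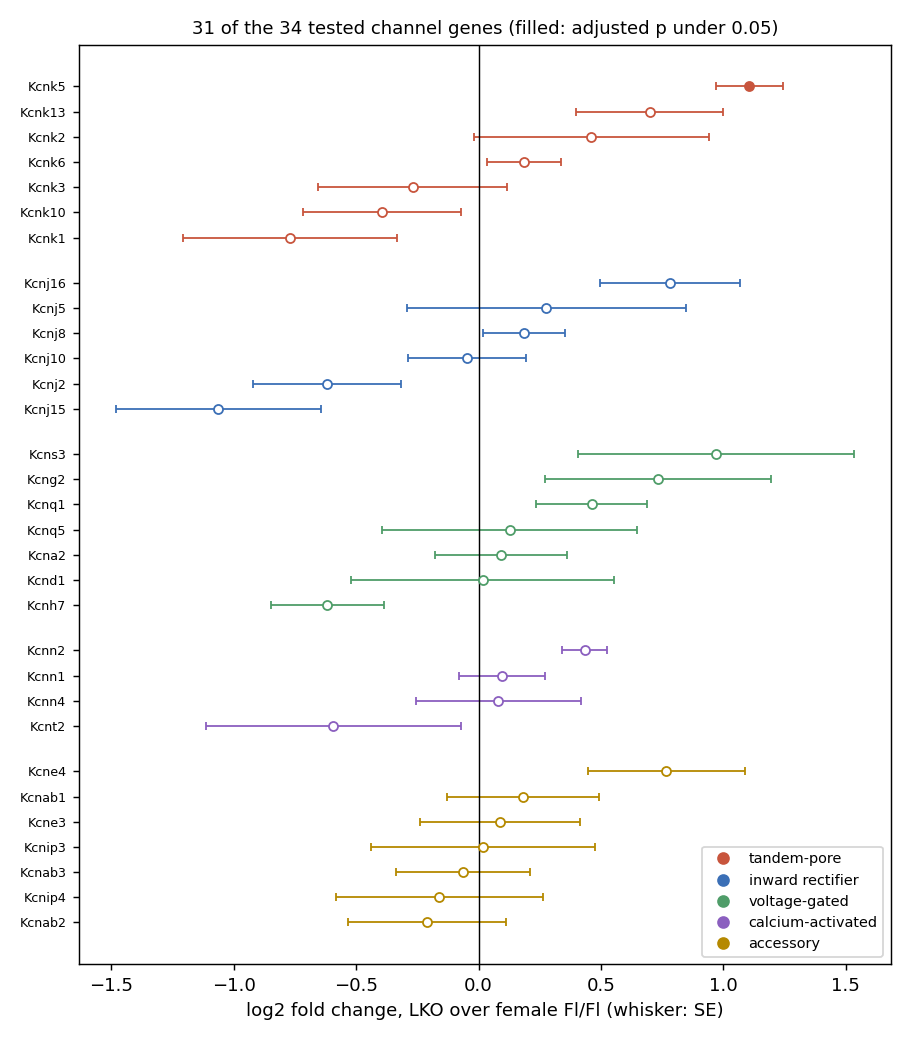
Log2 fold change of LKO over female Fl/Fl with its standard error for 31 of the 34 tested channel genes, grouped by kind of channel and sorted within each group. Kcnk5, at 1.11, is the one filled point, with an adjusted p under 0.05, and of the voltage-gated genes drawn Kcnh7 alone lies below 0, none being past the threshold.

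Among the tandem-pore channels 7 of 10 were tested and Kcnk5 rose, while 6 did not pass (group median log2 0.19). Kcnk13, whose product is a background channel known from microglia, stood at 0.761, 1.14 and 0.705 CPM across Fl/Fl 5, 7 and 9 and at 1.49, 1.86, 1.34 and 0.960 CPM in LKO 3, 4, 12 and 13. LKO 13 lay below Fl/Fl 7, so the groups overlapped (log2 0.70 ± 0.30, adjusted p = 0.285). Kcnk6, a channel of endosomes and lysosomes, was measured more precisely, at 4.89 ± 0.588 CPM in female Fl/Fl and 5.57 ± 0.588 CPM in LKO (log2 0.19 ± 0.15, adjusted p = 0.592). The other 4 tested genes, Kcnk1, Kcnk2, Kcnk3 and Kcnk10, had log2 fold changes of -0.77 to 0.46 with standard errors of 0.32 to 0.48.

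The inward rectifiers went both ways, and 0 of 6 tested genes passed (at unadjusted p under 0.05, 1 up and 1 down, group median log2 0.07). Kcnj16 makes a pH-sensitive subunit that pairs with the product of Kcnj10. It stood at 0.908, 1.31 and 1.15 CPM across Fl/Fl 5, 7 and 9 and at 1.30, 2.69, 1.62 and 2.12 CPM in LKO 3, 4, 12 and 13. LKO 3 fell among the controls (log2 0.78 ± 0.29, adjusted p = 0.210). Its partner gene Kcnj10 stood at 1.70 ± 0.418 CPM in female Fl/Fl and 1.64 ± 0.244 CPM in LKO (log2 -0.05 ± 0.24, adjusted p = 0.949).

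Kcnj15, a basolateral channel of secretory epithelia, held 0.347, 0.590 and 0.326 CPM across Fl/Fl 5, 7 and 9 and 0.132 to 0.241 CPM in LKO. The groups did not meet, but these are 10 to 46 reads per library (log2 -1.06 ± 0.42, adjusted p = 0.244). Kcnj2, the classical strong rectifier of muscle and endothelium, had 0.675 ± 0.0516 CPM in female Fl/Fl and 0.439 ± 0.0837 CPM in LKO (log2 -0.62 ± 0.30, adjusted p = 0.345). Kcnj16 and Kcnj2 are 38196 bases apart on chromosome 11, and their fold changes had opposite signs. Kcnj8, the pore of the ATP-sensitive channel of vascular mural cells, stood at 4.09 ± 0.622 CPM in female Fl/Fl and 4.65 ± 0.554 in LKO (log2 0.19 ± 0.17, adjusted p = 0.635). Its regulatory subunit gene Abcc9 was at log2 -0.10 ± 0.10 (adjusted p = 0.693).

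None of the 10 tested voltage-gated genes passed (at unadjusted p under 0.05, 0 up and 1 down), though 9 of the 10 fold changes were positive (group median log2 0.24). Kcnq1, the slow epithelial and cardiac channel that works with Kcne subunits, stood at 1.36, 1.18 and 1.66 CPM across Fl/Fl 5, 7 and 9 and at 1.80, 1.77, 2.41 and 1.74 CPM in LKO 3, 4, 12 and 13. The groups were close but did not overlap (log2 0.46 ± 0.23, adjusted p = 0.347). Its exons share 121 bases with the antisense RNA Kcnq1ot1, which had 1719 reads against 1009 of Kcnq1, and no source says that reads were assigned by strand.

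Kcnh7, a gene of the ether-a-go-go related channels, was the 1 tested voltage-gated gene with a negative fold change. It held 1.82, 1.54 and 1.47 CPM across Fl/Fl 5, 7 and 9, against 1.32 CPM in LKO 3 and 0.935 to 0.994 CPM in the other LKO libraries (log2 -0.62 ± 0.23, adjusted p = 0.224). Its exons overlap the opposite-strand gene Gca by 696 bases, so some of its reads are uncertain.

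The other 8 tested voltage-gated genes had log2 fold changes of 0.017 to 0.97 with adjusted p-values of 0.430 to 0.992. At the upper end, and named after their values were seen, were Kcns3 (0.134 ± 0.0616 CPM in female Fl/Fl, 0.266 ± 0.118 CPM in LKO) and Kcng2 (0.265 ± 0.133 and 0.443 ± 0.155 CPM). Both encode silent subunits, which conduct only together with pore-forming subunits of another family.

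Of the 4 tested calcium-activated and related genes, 0 passed and 1 was higher at an unadjusted p under 0.05 (group median log2 0.09). Kcnn2, a small-conductance channel that calmodulin opens, lies on chromosome 18, 45268860 to 45686024. It stood at 21.0, 19.7 and 20.8 CPM across Fl/Fl 5, 7 and 9, at 27.5, 30.1, 24.7 and 28.4 CPM in LKO 3, 4, 12 and 13, and at 23.9 CPM in the male control. The male library lay between the female groups, which did not overlap.

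The Kcnn2 mean was 20.5 ± 0.716 CPM in female Fl/Fl and 27.7 ± 2.26 CPM in LKO (log2 0.43 ± 0.09, adjusted p = 0.0522). The value crossed the threshold in 4 of 17 other settings, with DESeq2 (adjusted p = 0.00818), with no filter on low counts (adjusted p = 0.0297), without Fl/Fl 9 (adjusted p = 0.0454) and without LKO 12 (adjusted p = 0.0481). The highest adjusted p over these settings was 0.420, with no sex term. Its exons share 284 bases with the antisense gene A330093E20Rik, which had 510 reads against 14648 of Kcnn2.

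Kcnn1, another small-conductance channel gene, stood at 4.28 ± 0.781 CPM in female Fl/Fl and 4.57 ± 0.566 CPM in LKO (log2 0.10 ± 0.18, adjusted p = 0.843), and its sign turned without Fl/Fl 9 (log2 -0.051). Kcnn4, the intermediate-conductance channel of lymphocytes and secretory epithelia, was at log2 0.08 ± 0.34 (adjusted p = 0.938). The sodium-activated channel gene Kcnt2 varied widely within groups, from 0.885 to 3.71 CPM in female Fl/Fl and from 0.622 to 2.19 CPM in LKO (log2 -0.59 ± 0.52, adjusted p = 0.634, and 0.028 without Fl/Fl 9).

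**Figure D4:**
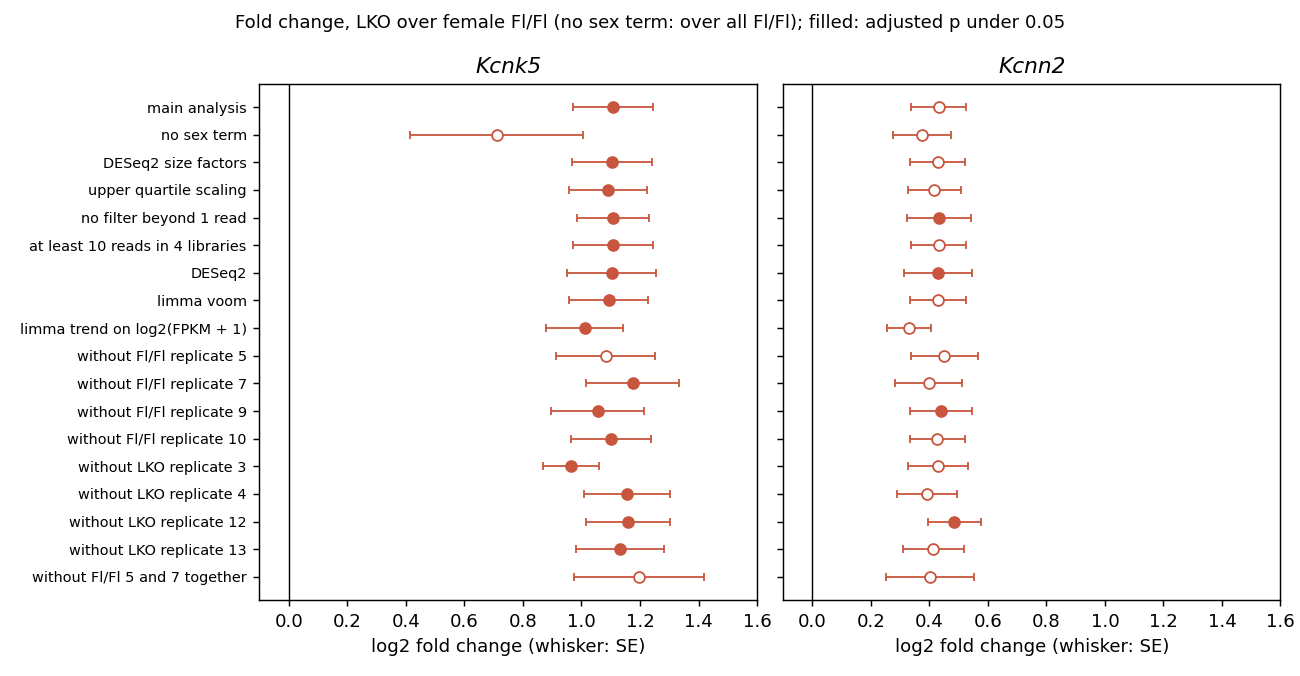
Log2 fold change with its standard error of Kcnk5 (left) and Kcnn2 (right) in the main analysis and in 17 other settings, filled where the adjusted p is under 0.05. Kcnk5 stays between 0.71 and 1.20 and is past the threshold in 14 of the 17, and Kcnn2 stays between 0.33 and 0.49 and is past it in 4.

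The accessory subunits, which tune gating and traffic of the pore-forming proteins, held 0 calls among 7 tested genes (1 higher at an unadjusted p under 0.05, group median log2 0.02). Kcne4, an inhibitory partner of Kcnq1, stood at 0.507, 0.692 and 0.574 CPM across Fl/Fl 5, 7 and 9 and at 0.751, 1.41, 1.10 and 0.776 CPM in LKO 3, 4, 12 and 13. The male control was lowest at 0.371 CPM (log2 0.77 ± 0.32, adjusted p = 0.273). Kcne3, which keeps Kcnq1 open in secretory epithelia, was at log2 0.09 ± 0.33 (adjusted p = 0.931). Kcnab2, a cytosolic beta subunit of the voltage-gated channels, was at log2 -0.21 ± 0.32 (adjusted p = 0.808), with Fl/Fl 9 highest at 1.21 CPM and a log2 fold change of 0.20 without it.

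The male control lay below all 7 female libraries in 9 of the 34 tested genes (among them Kcnk6, Kcnk2, Kcnj10, Kcnq5, Kcnn4, Kcne4, Kcnab3 and Kcnab1) and above all of them in 1, Kcnj2. These were 26.5% and 2.94% of the tested channel genes. Over all tested genes it lay below in 20.3% and above in 20.8%, so such values were not confined to the channel genes. Any library is lowest in some genes and highest in others by chance alone. Its summed endothelial markers were 185 CPM against 241 to 308 in females, and its stellate markers 208 against 292 to 350. Its cholangiocyte, macrophage and neutrophil sums lay within the female range. The part of cell type markers in these differences was not tested. Its Kcnk6 level was 3.34 CPM against 4.22 to 6.44 CPM in females. With 1 male library this is a description.

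The 37 genes that were not tested had 2 to 77 reads over the 8 libraries and at most 0.0364 FPKM on average. A total of 3 reads in a library is worth 0.0385 to 0.0428 CPM, so changes of most of these genes were not detectable at this depth. They include Kcnj11, the ATP-sensitive pore of pancreatic beta cells, with 2 reads in all, and Kcnma1, the large-conductance calcium-activated channel of smooth muscle, with 77. Chosen after their values were seen, Kcnd3 had 34, 10 and 2 reads in Fl/Fl 5, 7 and 9 and 0, 0, 4 and 7 in LKO 3, 4, 12 and 13, and Kcnk7 had 0 reads in each Fl/Fl library and 1, 8, 0 and 2 in LKO.

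Potassium entering by the sodium pump is what these channels release. Of 12 tested pump genes 1 rose, and the remaining 11 missed the threshold (median log2 -0.032). The gene that rose was Fxyd1, whose product phospholemman regulates the pump. It held 94.7, 94.5 and 94.2 CPM across Fl/Fl 5, 7 and 9 and 141, 157, 138 and 115 CPM in LKO 3, 4, 12 and 13, with 143 CPM in the male control. Every LKO value lay above the female controls, and the male library lay among the LKO values, as for Kcnk5 (1.46-fold, log2 0.54 ± 0.10, adjusted p = 0.0367). The call was lost in 8 of 17 other settings, among them on leaving out any one of Fl/Fl 5, Fl/Fl 7, LKO 3, LKO 4 or LKO 12 (adjusted p = 0.0627 to 0.175) and, with a log2 fold change of 0.37, with no sex term (adjusted p = 0.609).

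None of 13 tested cation-chloride cotransporter and kinase genes passed (median log2 -0.12), the member with the smallest p being Slc12a9 at log2 0.20 ± 0.09 (adjusted p = 0.315). None of 7 other channel partners passed, led by the intracellular cation channel gene Tmem38b at log2 0.30 ± 0.10 (adjusted p = 0.184). The same held for 5 genes of the swelling-activated anion channel, led by Lrrc8c at log2 0.62 ± 0.22 (adjusted p = 0.223, and 0.97 with an adjusted p of 0.00649 without Fl/Fl 9). It held too for 7 genes of biliary chloride and bicarbonate secretion, led by the anion exchanger Slc4a2 at log2 0.19 ± 0.09 (adjusted p = 0.326).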

How the data were processed

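Liver RNA, isolated on columns, was made into NEBNext Ultra libraries, per the labels' protocols. The submitters' processing notes name fastp, STAR, HTSeq, featureCounts, DESeq, DESeq2, edgeR and mm10; annotation and strand setting are not given in the sources used here. Deposited by the authors were read counts per gene, a signal that equals these counts divided by 1 size factor per library, FPKM values, and their own log2 fold changes with p-values. In each library more genes had 2 reads (1408 to 1681) than 1 read (500 to 907), so low counts lean to even numbers and the counting error is larger than the read numbers imply. Whether both mates were counted is not given.

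The edgeR 4.0.16 package (R 4.3.3) was run on the counts of all 8 libraries: filterByExpr by genotype, TMM scaling, and a robust quasi-likelihood F test of genotype with sex as a second term. P-values are two-sided, with a threshold of 0.05 after Benjamini-Hochberg adjustment over 16420 genes. Each standard error is the absolute log2 fold change over the root of its F statistic. Labels give no litter or preparation day, so the p-values reflect how far these libraries vary, which may be technical. DESeq2 1.42.0 and limma 3.58.1 were alternatives. On simulated counts for this comparison (16420 genes, 200 changed), edgeR called 78% of changes of 1 and 95% of changes of 2 on the log2 scale, with 4.42% of calls false.

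Members, lists and settings were chosen with earlier results of these data known. The rule names Kcnk5; genes past the threshold; the 2 smallest p of each channel group; genes averaging at least 0.5 FPKM; and, per partner list, those past the threshold or else the smallest p. Other genes were named as partners, subunits or neighbours of these, or were picked from their group or list with results already known. The latter include Junb, Fos, Dbp, Kcnn4, Kcnj11 and Kcnma1. All 71 genes were in GENCODE M21, 68 with the deposited coordinates; 52 had a RefSeq promoter entry. The 8 motifs were chosen after the values were seen. A few genes are counted in the totals but not reported here by name or drawn in the plots.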

Additional observations from a re-analysis of the deposited data

Results flagged for a closer look

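In 5 of 28 groups of 4 libraries examined (14 genes, Fl/Fl and LKO), 1 library stood far from the other 3 by Dixon's criterion, which chance meets in about 1 of 20 groups. Kcnk5 in Fl/Fl 10, the male control, was 63.9 CPM against 26.3 to 31.0 in the female controls. Kcnk5 in LKO 3 was 77.4 CPM against 54.2 to 56.7 in the other LKO livers. Kcnh7 was also high in LKO 3, at 1.32 CPM against 0.935 to 0.994. Kcnk13 in Fl/Fl 7 was 1.14 CPM against 0.705 to 0.761. Kcnq1 in LKO 12 was 2.41 CPM against 1.74 to 1.80.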

How the results depend on the processing

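The number of channel genes called higher was 1; it was 0 with no sex term and without Fl/Fl 5 and 7 together, and 2 with DESeq2, with no filter beyond 1 read and at an adjusted p of 0.1. It ranged from 0 to 2 when each library was left out in turn, being 0 without Fl/Fl 5. No setting called a channel gene lower. Kcnk5 kept its direction in 17 of 17 settings and its call in 14. Of the other named genes, 3 changed sign without Fl/Fl 9, none past the threshold in any setting. On leaving out each library their log2 fold changes ranged from -0.98 to 0.028 (Kcnt2), -0.40 to 0.20 (Kcnab2) and -0.051 to 0.19 (Kcnn1). The inward rectifier median was -0.16 without Fl/Fl 5 and 7 together. The voltage-gated median was 0.40 with no sex term and ranged from 0.13 to 0.40 when each library was left out, highest without Fl/Fl 9. The cause was not tested. Over all genes, 167 higher and 65 lower became 1 and 0 with no sex term, 520 and 284 with DESeq2, 320 and 142 with no filter, and 2 to 476 and 2 to 251 on leaving out a library. The 10 highest genes by FPKM and by CPM shared 8. No paired analysis was possible because the genotypes share no replicate number. Most channel genes are limited by depth: 37 of 71 had too few reads to test.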
